A study of Mus musculus with 26 samples.

Results

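The 10 genes examined encode stathmins and proteins of the growth cone, the motile tip of a growing axon: Stmn1, Stmn2, Stmn3, Stmn4, Gap43, Basp1, Marcks, Dpysl2, Dpysl3 and Crmp1. They were chosen by gene symbol, each symbol matched 1 row, and they are 10 of the 56941 genes in the tables. RNA was sequenced in 26 libraries of spheroids differentiated from the mouse embryonic stem cell line HBG3, in which GFP reports the promoter of the motor neuron transcription factor HB9 (gene Mnx1). The labels give the same genotype entry, the same line, expansion on a feeder layer, and differentiation with retinoic acid, purmorphamine, CNTF and GDNF to about day 8 for every group. All spheroids were then seeded on fibrin.

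The groups differed in what followed. In the actuated group (n = 4), labelled mechanical stimulation, a magnetic silicone array in the matrix moved the spheroids at 4 Hz for 30 min each day. In the static group (n = 4), labelled mechanical control, the array was present but was never moved. The groups labelled high intensity biochem (n = 6) and low intensity biochem (n = 6) are here called high and low intensity, and they were compared with biochemical controls (n = 6). The design text describes media from muscle that had or had not been stimulated with light, but its sample names cannot be matched to the intensity labels. It is assumed that such medium reached the 2 intensity groups and not the controls. The line is a single line, and nothing in the labels says that replicates came from separate differentiations, so p-values measure the spread between these samples, which may be technical.

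Stathmins bind tubulin dimers and promote microtubule disassembly, and phosphorylation by kinases such as JNK turns them off. Stmn1 is cytosolic and is also found in dividing cells, whereas Stmn2 (SCG10), Stmn3 (SCLIP) and Stmn4 (RB3) are membrane-anchored and neuronal, and Stmn2 is known in motor neurons as an RNA processed under the control of TDP-43. Gap43, Basp1 and Marcks are acidic, lipid-anchored proteins of the growth cone membrane that interact with calmodulin or protein kinase C and with phosphoinositides. Dpysl2 (CRMP2), Dpysl3 (CRMP4) and Crmp1 are collapsin response mediator proteins, which carry semaphorin signals to microtubules and actin and are regulated by Cdk5 and GSK3.

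RefSeq promoter sequences (build GRCm38.p6) were on hand for 3 of the 10 members. The 250 bases before the gene start of Stmn3 and of Basp1 are shown, because Stmn3 gave the one call among the members and Basp1 was the most abundant per unit length. Both genes lie on the minus strand, at chr2:181314501-181314750 and chr15:25413765-25414014, and the sequences are written 5′ to 3′ on the gene strand. Capitals mark matches on either strand to the GC box GGGCGG or the E-box CANNTG, and where 2 matches overlap they run together.
Stmn3: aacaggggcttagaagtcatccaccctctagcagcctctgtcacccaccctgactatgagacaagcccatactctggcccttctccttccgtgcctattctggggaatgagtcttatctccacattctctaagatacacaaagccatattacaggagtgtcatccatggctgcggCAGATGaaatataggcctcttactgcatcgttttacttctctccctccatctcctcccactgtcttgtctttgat
Basp1: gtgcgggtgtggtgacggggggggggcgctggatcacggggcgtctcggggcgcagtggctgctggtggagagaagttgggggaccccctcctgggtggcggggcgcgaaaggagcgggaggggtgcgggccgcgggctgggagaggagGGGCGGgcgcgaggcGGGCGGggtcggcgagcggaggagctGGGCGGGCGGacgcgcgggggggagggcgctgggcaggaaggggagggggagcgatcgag
The Stmn3 window was 48.8% G and C and held 1 E-box and 0 GC boxes. The Basp1 window was 78.8% G and C and held 4 GC boxes and 0 E-boxes. The CRE TGACGTCA and the TATA box TATAAA had 0 matches in both. Among 32851 RefSeq promoter windows of the same length, 66.2% held an E-box, 32.7% a GC box, 12.4% the TATA box and 1.55% the CRE. A match describes the letters only.

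Depth set what could be resolved. Library totals ran from 1536 to 13162635 counts. In 5 libraries (static replicate 3, high intensity replicates 4 and 5, low intensity replicate 6 and control replicate 4) fewer than 1000000 counts fell on protein-coding genes, and there the members had between 0 and 437 counts each. The other 21 are called the deeper libraries (4 actuated, 3 static, 4 high, 5 low, 5 control), in which each member had between 235 and 19570 counts. Every comparison was fitted on all 26 libraries, the main test, and again on the deeper libraries. The main test is given as counts of calls, and levels come from the deeper libraries. Neuron markers were present in every deeper library (summed over 9 genes, between 5714 and 11566 CPM, normalized read counts scaled to the library total). Of the 7 motor neuron markers, Slc18a3 (the vesicular acetylcholine transporter) was highest, with a median of 55.1 CPM, followed by Slc5a7 at 17.1, Chat at 7.95, Mnx1 at 7.87 and Isl1 at 7.59 CPM. Lhx3 had a median of 1.45 CPM, and Isl2 was counted in 13 of 21 libraries.

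All 10 members were abundant. By mean normalized read count (TMM-scaled CPM), Dpysl3 was number 35 of 13212 protein-coding genes, Basp1 number 57, Dpysl2 number 95 and Stmn2 number 106, and the lowest member, Stmn4, was number 1328. The coefficient of variation over the 21 deeper libraries was 10.5% for Dpysl3, 11.2% for Dpysl2 and 11.5% for Marcks, and 20.6% for Basp1 and 19.4% for Gap43. The median over 2007 protein-coding genes of at least 100 CPM was 14.8%. The spread of Basp1 and Gap43 was largest in controls, at 30.0% and 30.9%, and in actuated libraries Basp1 varied by 3.80%. On protein-coding TPM the order changed: Stmn4 had the largest coefficient of variation, 20.4%, with 15.8% for Basp1 and 14.7% for Gap43, and Dpysl3 the smallest on both scales.

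Per unit of length, and within protein-coding genes, Basp1 was the highest member in all 5 groups, from 987 ± 156 TPM (SD, n = 4) at high intensity to 1306 ± 188 TPM (SD, n = 3) on the static array. Here TPM was rescaled so that protein-coding genes sum to 1000000 in each library. Stmn1 was next and Dpysl3 the third in every group, and Marcks was last, at 136 ± 17.7 TPM (SD, n = 5) at low intensity to 152 ± 29.9 TPM (SD, n = 4) at high intensity. Stmn2, Stmn3 and Gap43 held the middle, with control levels of 710 ± 45.3, 758 ± 44.7 and 626 ± 132 TPM (SD, n = 5). Stmn2 and Gap43 were not separated by more than their spread in 4 groups, the static array being the exception, and Stmn4, Crmp1 and Dpysl2 lay close together below them.

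**Figure D1:**
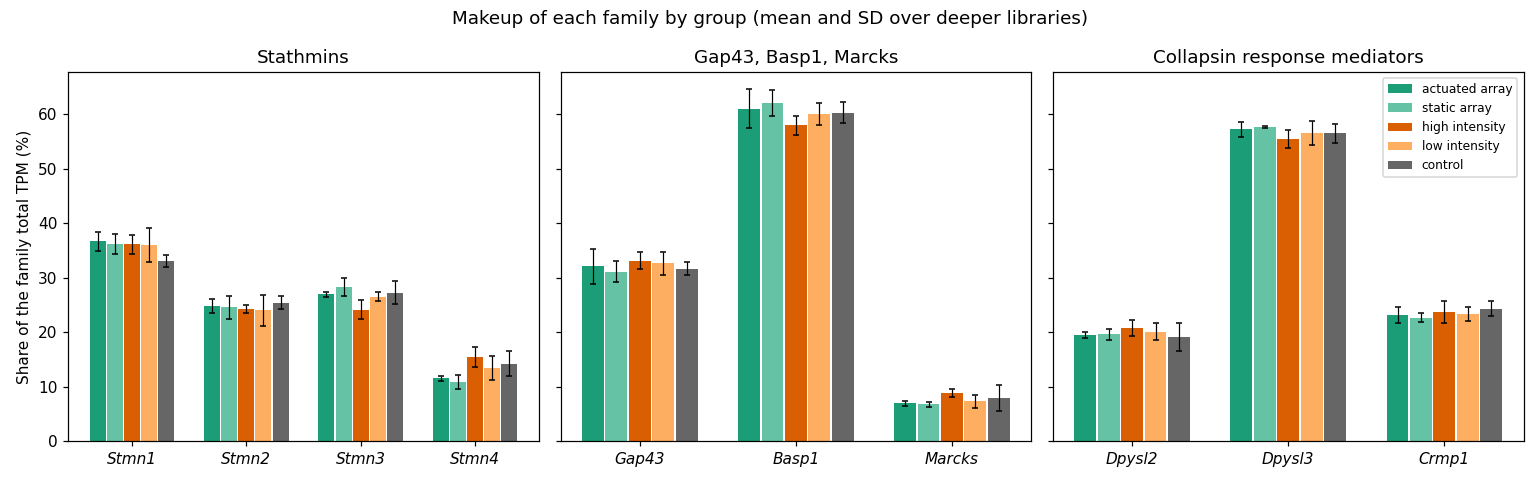
Share of each gene in the total TPM of its family (y axis, %) in the 5 groups, as the mean with SD over deeper libraries. Stmn1 leads the stathmins, Basp1 the membrane proteins and Dpysl3 the CRMP genes in every group.

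Within each family the leading gene was the same in every group by mean share, as the plot of family shares shows, while some shares, leading ones included, did not overlap between groups. Stmn1 made up 35.5% ± 2.34 of stathmin TPM (SD, n = 21), Stmn3 26.6% ± 1.90, Stmn2 24.6% ± 1.69 and Stmn4 13.3% ± 2.34. Basp1 made up 60.2% ± 2.46 of its family, Gap43 32.2% ± 2.0 and Marcks 7.67% ± 1.45. Dpysl3 made up 56.6% ± 1.66 of the CRMP genes examined, Crmp1 23.5% ± 1.39 and Dpysl2 19.8% ± 1.63. The share of Stmn3 was lowest at high intensity, 24.2% ± 1.81 (SD, n = 4) against 27.2% ± 2.11 (SD, n = 5) in controls, and the group ranges overlapped. It did not overlap with the static array, where the range was 26.4% to 29.5% against 22.3% to 26.3% at high intensity. The share of Stmn4 was 13.8% to 18.0% at high intensity, above 11.1% to 12.1% on the actuated and 10.1% to 12.4% on the static array. The share of Marcks was likewise 8.20% to 9.84% at high intensity, above 6.41% to 7.39% and 6.58% to 7.39% on the arrays. Among the leading genes, the share of Stmn1 was 32.0% to 34.8% in controls, below 35.1% to 38.9% on the actuated and 35.0% to 38.2% on the static array. The share of Dpysl3 was 57.5% to 57.9% on the static array, above 53.8% to 57.4% at high intensity. These shares do not depend on how the library is scaled. How often group ranges of shares separate by chance was not counted, so the separations are description only. Each one listed sets an array group against high intensity or controls. The array groups were also sequenced more deeply, with at least 7269276 counts in each deeper library. The most was 3971348 counts at high intensity and 3771637 in controls. The part of depth in these separations was not tested.

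**Figure D2:**
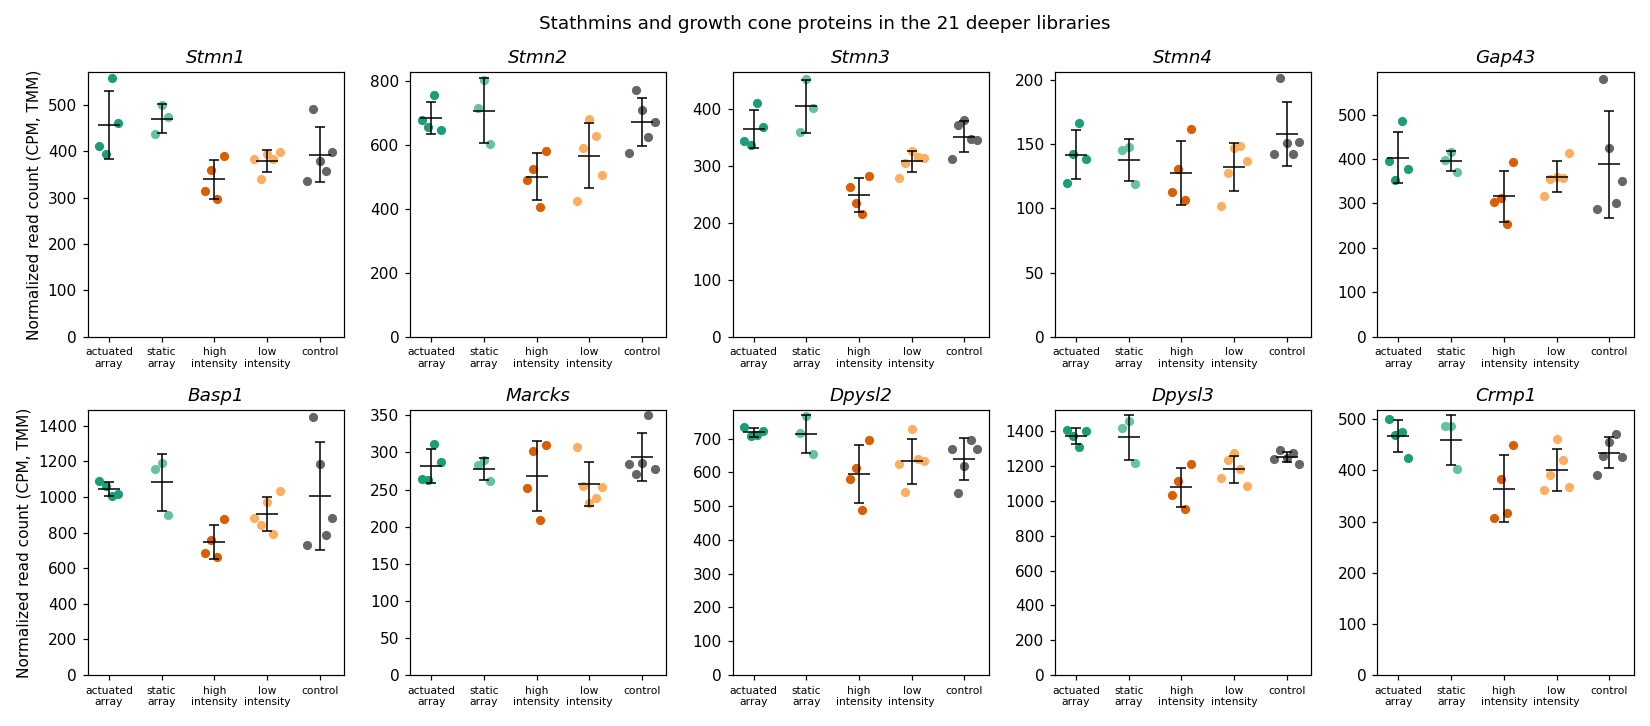
Normalized read count (TMM-scaled CPM, y axis, from 0) of the 10 genes in each deeper library (points) by group, with mean and SD. For Stmn3 the 4 high-intensity libraries lie between 215 and 284 CPM, below all 5 controls (313 to 382 CPM).

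Actuation of the array was compared with the still array to ask what movement does to these genes. None of the 10 members was called, with all 26 libraries or with the deeper ones, and 0% of all genes were called in either fit. The unadjusted p was under 0.05 for 0 of 10 members in both fits, against 3.86% of all genes with all libraries and 0.38% with the deeper ones. In the deeper libraries the log2 fold changes ran from -0.15 (Stmn3) to 0.05 (Stmn4), and every 95% interval lay between -0.41 and 0.41.

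Gap43, the classic marker of axon growth, was at 396, 353, 486 and 378 CPM in the 4 actuated libraries and at 398, 416 and 371 CPM in the 3 static ones. The groups overlapped. The fitted ratio of actuated to static was 1.02 (95% interval 0.786 to 1.32). Stmn2, which is needed for axon regrowth in motor neurons, was at 679, 655, 755 and 646 CPM when actuated and at 715, 804 and 602 CPM on the static array. The ratio was 0.967 (95% interval 0.784 to 1.19), and the groups again overlapped. With all 26 libraries the 10 members were slightly higher when actuated (log2 fold change 0.02 to 0.24), with intervals that reached from -0.82 to 1.19. Their median of 0.17 was near that of abundant protein-coding genes, 0.13. Of the libraries of these 2 groups, static replicate 3 entered the fit of all libraries only.

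**Figure D3:**
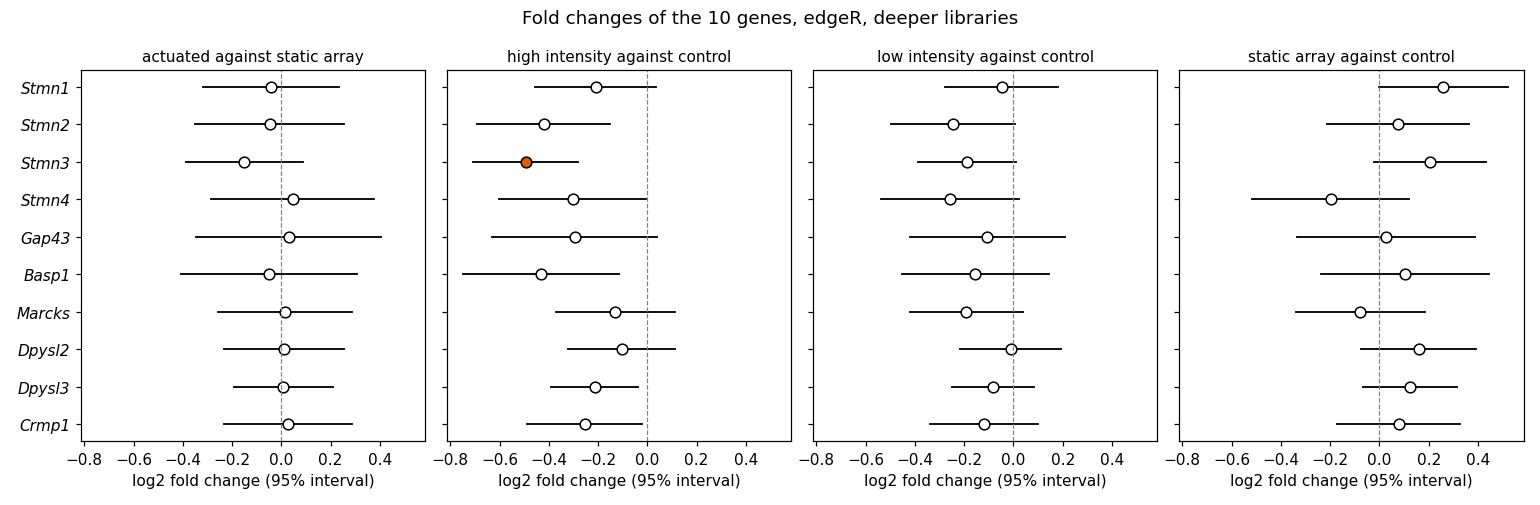
log2 fold change (x axis) with 95% interval for the 10 genes in 4 comparisons, from edgeR on the deeper libraries. The filled point is the one gene with an adjusted p under 0.05, Stmn3 at high intensity, at -0.49.

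At high intensity the members had their lowest mean normalized read counts in the deeper libraries, except Marcks, which was lowest at low intensity (257 against 268 CPM). This order depends on the scale: in deposited TPM the members' sum was lowest in controls, and in protein-coding TPM Marcks was highest at high intensity, Dpysl2 was lowest in controls and Stmn4 was lowest on the static array. These protein-coding TPM orders rest on differences within the SD. Marcks was at 152.5 ± 29.9 against 152.0 ± 23.8 TPM in controls, and Dpysl2 at 295 ± 51.4 in controls against 299 ± 36.8 TPM at low intensity. Stmn4 was at 336 ± 40.7 on the static against 346 ± 18.1 TPM on the actuated array. With all 26 libraries 0 of 10 members were called (0.0402% of all genes were), with fold changes from -0.61 (Stmn3) to -0.12, and the smallest adjusted p was 0.775. In the deeper libraries all 10 had fold changes below 0, from -0.49 (Stmn3) to -0.10 (Dpysl2), and 1 of 10, Stmn3, was called lower, against 0.156% of all genes. Their median was -0.28, beside 0.0033 for all genes and -0.09 for abundant protein-coding genes. At an unadjusted p under 0.05, 6 of 10 were lower (Stmn2, Stmn3, Stmn4, Basp1, Dpysl3 and Crmp1), against 7.28% of all genes.

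Stmn3 (ENSMUSG00000027581), a stathmin that regulates neurite branching, was at 264, 236, 215 and 284 CPM in the high-intensity libraries. It was at 313, 372, 382, 347 and 346 CPM in the controls. The highest treated library lay below the lowest control, a separation seen in the same direction in 1.49% of all genes and in no other member. The means were 249.9 ± 30.2 CPM (SD, n = 4) and 352 ± 27.1 CPM (SD, n = 5). In edgeR the log2 fold change came to -0.49 (SE 0.10) with an adjusted p of 0.0416, number 24 of 14730 genes by p. As a ratio this is 0.71 (95% interval 0.613 to 0.824).

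The Stmn3 call stood close to the threshold. When each deeper library was left out in turn it was kept in 10 of 21 fits, with adjusted p between 0.0154 (without high intensity replicate 6) and 0.159 (without high intensity replicate 3), while the log2 fold change stayed between -0.55 and -0.43. Adjusted p was 0.179 when only high-intensity and control libraries were fitted.

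Stmn2 was at 491, 526, 406 and 582 CPM at high intensity and at 575, 771, 709, 625 and 673 CPM in controls. Only the highest treated library, replicate 6, overlapped the lowest control. The log2 fold change was -0.42 (SE 0.13) with an adjusted p of 0.116. Basp1, a growth cone membrane protein related in function to Gap43, was at 686, 760, 662 and 877 CPM at high intensity. Its controls were widely spread, at 731, 1447, 1187, 788 and 880 CPM, so that the groups overlapped. Its log2 fold change was -0.43 (SE 0.15, adjusted p = 0.161).

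Gap43 was at 304, 313, 253 and 393 CPM at high intensity and at 287, 579.6, 424, 299.9 and 349 CPM in controls. Control replicate 2 was the highest library for Gap43, Basp1, Stmn1, Stmn2, Stmn4 and Dpysl3 among the controls. The Gap43 log2 fold change was -0.30 (SE 0.16, adjusted p = 0.39). Of the CRMP genes, Dpysl3 was at 1035, 1115, 951 and 1214 CPM against 1238, 1291, 1246, 1273 and 1212 CPM in controls, which were tight. Here only replicate 6 of the treated libraries reached the control range. The change was -0.21 (SE 0.09, adjusted p = 0.216). Crmp1 changed by -0.26 (SE 0.11) and Stmn4 by -0.30 (SE 0.14), with adjusted p of 0.262 and 0.303. The smallest differences were those of Dpysl2, Marcks and Stmn1, at -0.10, -0.13 and -0.21.

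Markers of some cell types differed as well, and their part in the result was not tested. At high intensity 9 of 9 neuron markers were lower (median log2 fold change -0.30, 0 called, 6 at an unadjusted p under 0.05), and their sum was 5714 to 8889 CPM against 8720 to 9949 CPM in controls. All 5 cycling-cell markers were higher, 2 of them called (Mki67, 1.31, adjusted p = 0.0364, and Top2a, 1.30, adjusted p = 0.0448), with sums of 298 to 885 CPM against 167 to 229.8 CPM. All 7 mesenchymal markers were higher, none called, with sums of 902 to 2390 CPM against 348 to 895 CPM. Of 7 skeletal muscle markers 4 were fitted, and all 4 were higher (median log2 fold change 1.48, 0 called, 2 at an unadjusted p under 0.05), with sums of 22.6 to 184 CPM against 8.46 to 101 CPM. Des, an intermediate filament gene of muscle, made up most of this sum, at 109 ± 68.2 CPM (SD, n = 4) against 24.9 ± 22.9 CPM (SD, n = 5), while Myog and Ckm had 4 and 6 counts over the 21 deeper libraries. Astrocyte sums were 2019 to 2325 CPM at high intensity, within the 1794 to 2467 CPM of controls. Motor neuron sums overlapped (75.2 to 128 CPM against 105 to 162 CPM). So did those of progenitors and radial glia (1476 to 2407 CPM against 1210 to 1636 CPM) and of the oligodendrocyte lineage (131 to 201 CPM against 84.2 to 167 CPM). Set against the neuron markers, most members were not lower, which follows from the fall of the marker sum itself. The sum was 7371 ± 1300 CPM (SD, n = 4) at high intensity against 9464 ± 491 CPM (SD, n = 5) in controls. Any gene that fell less than this sum takes a higher percentage of it. As a percentage of the summed neuron markers in the same library, 7 of 10 had a higher mean at high intensity than in controls, and Stmn2, Stmn3 and Basp1 had a lower one. This percentage depends largely on the neurofilament genes Nefl and Nefm, with medians of 4592 and 1614 CPM in a summed median of 9383 CPM. Nefm was at 1060 ± 407 CPM (SD, n = 4) at high intensity against 1753 ± 260 CPM (SD, n = 5) in controls. Tubb3 differed less, at 478 ± 98.8 CPM against 561 ± 71.2 CPM. Dpysl2 was at 8.10% ± 0.34 (SD, n = 4) against 6.77% ± 0.83 (SD, n = 5), with ranges of 7.81% to 8.54% and 5.47% to 7.67%. The share of all genes whose groups separate on this measure was not counted, so the ranges of Dpysl2 are description only. Stmn3 was 3.42% ± 0.30 (SD, n = 4) at high intensity and 3.72% ± 0.22 (SD, n = 5) in controls, and on this measure the groups overlapped, from 3.15% to 3.77% against 3.49% to 4.07%. In bulk RNA, fewer neurons and less RNA per neuron cannot be told apart.

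At low intensity the fold changes in the deeper libraries were closer to 0 than at high intensity for 9 of 10 members. Marcks was the exception (-0.19 at low and -0.13 at high intensity). With all libraries this held for 6 of 10, Marcks among them (-0.33 at low and -0.38 at high intensity). The other 4 were slightly farther from 0 at low intensity: Stmn2 (-0.47 against -0.43), Stmn4 (-0.47 against -0.43), Dpysl3 (-0.25 against -0.23) and Crmp1 (-0.125 against -0.124). None of 10 was called with either set of libraries, against 0.0268% of all genes with all libraries and 0.597% with the deeper ones, and 0 of 10 had an unadjusted p under 0.05 in either set, against 5.23% and 15.2% of all genes. In the deeper libraries the 10 log2 fold changes ran from -0.26 (Stmn4) to -0.01 (Dpysl2). Stmn3 was at 279, 306, 328, 316 and 315 CPM, and 3 of these 5 lay in the control range. The ratio to control was 0.877 (95% interval 0.764 to 1.01, adjusted p = 0.356). Stmn2 was at 424, 592, 680.2, 627 and 507 CPM, a log2 fold change of -0.25 (SE 0.12, adjusted p = 0.344).

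Both intensity groups share the same controls, so their values are given side by side and not correlated. Set against each other directly in the deeper libraries, high intensity differed from low by -0.30 in Stmn3 (SE 0.10, adjusted p = 0.481) and by -0.28 in Basp1 (SE 0.15, adjusted p = 0.697). Marcks was the one member with a positive value there, 0.06 (SE 0.12). With all 26 libraries 4 of 10 members were positive, up to 0.04 (Stmn2), and Marcks was at -0.05. None of 10 was called in either fit, and 0% of all genes were. Stmn3 was the 1 of 10 with an unadjusted p under 0.05 in the deeper libraries and was lower, against 4.06% of all genes.

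The static array was compared with the biochemical controls, 2 groups that differ in the array and also in depth. None of 10 was called, against 0.0134% of all genes with all libraries and 0.713% with the deeper ones. In the deeper libraries Stmn1 was at 437, 499 and 474 CPM on the static array and at 336, 491, 379.5, 358 and 398 CPM in controls. Only control replicate 2 reached the static range. The log2 fold change was 0.26 (SE 0.13, adjusted p = 0.406). Stmn3 followed with 0.20 (SE 0.11), and Stmn4 was the lowest at -0.20 (SE 0.16).

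The effect of actuation was also compared with that of high intensity in an interaction test, which asks whether the mechanical and the biochemical treatment act differently on a gene. In the deeper libraries the difference was positive for all 10 members, from 0.11 (Dpysl2) to 0.38 (Basp1), and for Stmn3 it was 0.34 (SE 0.15, 95% interval 0.02 to 0.66, adjusted p = 0.72). The median of the members was 0.30, beside 0.11 for abundant protein-coding genes. Since their median under actuation was 0.009, the shared sign mostly repeats the lower values at high intensity. None was called in either fit, and 0% of all genes were. Stmn3 was the 1 of 10 with an unadjusted p under 0.05 in the deeper libraries, higher, against 2.96% of all genes.

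The scale mattered for these genes. In the deposited TPM, 7SL RNA (Rn7s1 and Rn7s2, the RNA of the signal recognition particle) took 11.9% to 61.0% of a deeper library, 39.2% ± 12.8 in controls (SD, n = 5) and 15.5% ± 3.15 at low intensity (SD, n = 5). The 10 members together held 0.235% ± 0.054 of deposited TPM in controls and 0.355% ± 0.042 at low intensity. Within protein-coding TPM they held 0.630% ± 0.042 and 0.590% ± 0.045, so that the order of the groups turned. For Stmn2 the deposited values were 266 ± 61.5 TPM in controls (SD, n = 5) and 441 ± 57.2 TPM on the actuated array (SD, n = 4), where normalized read counts were 671 ± 75.7 and 684 ± 49.4 CPM. Across the 21 libraries the log2(TPM + 1) of each member fell with the 7SL share (r from -0.85 for Gap43 to -0.68 for Stmn4), which is partly built in since TPM sums to a constant, whereas log2 CPM did not follow it (r from -0.16 to 0.26). In limma on log2(TPM + 1) of the deeper libraries, 7 of 10 members were called higher at low intensity than in controls, as were 29.9% of all genes, whose median shift was 0.60. On that scale Stmn3 at high intensity was at 0.11, not called.

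**Figure D4:**
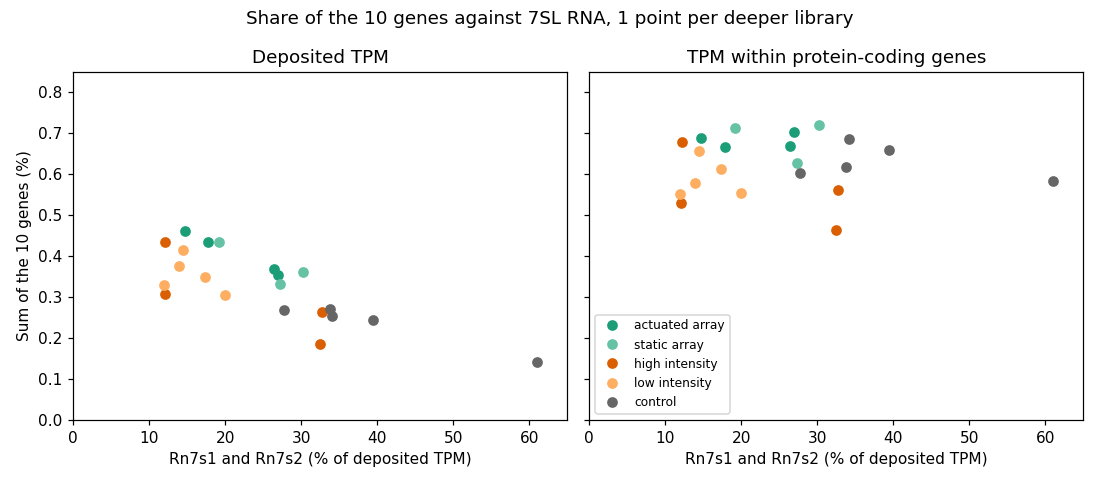
Sum of the 10 genes (y axis, %) against the share of Rn7s1 and Rn7s2 in deposited TPM (x axis, %), 1 point per deeper library, coloured by group. With deposited TPM (left) the control library at 61.0% 7SL has the lowest sum, and within protein-coding TPM (right) it lies among the others.

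The members varied together from library to library. Over the 21 deeper libraries the median r of the 45 pairs of log2 CPM was 0.62, and 0.44 after group means were removed. The median r of the members with 9635 protein-coding genes of at least 10 CPM was 0.04. Those genes were not matched to the members in level or cell type. The libraries share depth and scaling, so these r values are descriptions. Gap43 and Basp1 were close (r = 0.87, and 0.84 after group means were removed), as were Dpysl3 and Crmp1 (r = 0.89). The r of Marcks with the other members ran from 0.17 (Basp1) to 0.45 (Dpysl2), and that of Dpysl2 with Gap43 was 0.22.

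Among 9635 protein-coding genes, those most like Stmn2 over the 21 libraries were Calm2 (a calmodulin gene, r = 0.94), Bex1 (r = 0.92) and Ppp2r2c (a phosphatase subunit, r = 0.90). Those most like Gap43 were Calm3 (another calmodulin gene, r = 0.90), Clgn (r = 0.87) and Basp1. The nearest gene to Stmn1 was Tubb2b (a beta-tubulin, r = 0.91), to Stmn3 Dtd1 (r = 0.95), to Stmn4 Wwox (r = 0.85), to Basp1 Cltb (a clathrin light chain, r = 0.92) and to Marcks Mapk8ip1 (a JNK scaffold, r = 0.84). To Dpysl2 it was Atp9a (r = 0.89), to Dpysl3 Aplp1 (r = 0.95) and to Crmp1 Mapt (tau, r = 0.95). After group means were removed, Dtd1, Wwox and Cltb were no longer among the 5 genes most like Stmn3, Stmn4 and Basp1. Clgn and Basp1 were likewise not among the 5 for Gap43, and the other genes named stayed among the 5. With summed neuron markers the members had r from 0.45 (Marcks) to 0.93 (Dpysl3), and with summed mesenchymal markers from -0.66 (Dpysl2) to -0.32 (Stmn4).

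Genes that act on the members were taken from lists and fitted in the deeper libraries. Of 18 kinase, phosphatase and calmodulin genes, 0 were called in any of the 4 comparisons shown in the plot of fold changes. At high intensity 15 of the 18 were lower (median log2 fold change -0.25), 6 of them at an unadjusted p under 0.05, and 2 higher ones passed that level. Calm2, which binds Gap43 and Marcks, was the nearest to a call, at -0.50 (SE 0.12, adjusted p = 0.0538).

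Of 7 regulators of Stmn2 and Gap43 RNA, 1 was called. Elavl4 (HuD), which stabilizes Gap43 RNA, was lower at low intensity by a log2 fold change of -0.59 (SE 0.13, adjusted p = 0.037), while Gap43 itself was at -0.11 (SE 0.15). Elavl4 is also on the neuron marker list. Rest, a repressor of neuronal genes that acts on Stmn2, was at 0.64 (SE 0.18, adjusted p = 0.0945) at high intensity. Of the 5 close relatives outside the members, 4 were fitted and 0 were called. Marcksl1, the nearest relative of Marcks, was at -0.21 (SE 0.10, adjusted p = 0.283) at high intensity and at 0.41 (SE 0.10, adjusted p = 0.0611) on the static array against controls.

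Of 22 other growth cone genes, 0 were called in those 4 comparisons. At high intensity 15 were lower and 7 higher (median log2 fold change -0.06), and at low intensity Pfn1 (profilin, an actin-binding protein) was at 0.80 (SE 0.21, adjusted p = 0.0615). Of 10 regeneration-associated genes, 1 was called: Hspb1, a small heat shock protein induced in injured motor neurons, was higher at low intensity by a log2 fold change of 1.25 (SE 0.29, adjusted p = 0.0443). The other 9 were not, and 8 of the 10 had values below 0. Under actuation 0 genes of these 5 lists were called.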

How the data were processed

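Per the labels' protocols, total RNA was isolated with RNeasy Micro, libraries were made with the SMARTer Pico v2 kit from 4 ng RNA (full volume for the 8 samples of lowest concentration, not named), rRNA fragments were cleaved with ZapR, and paired 50-base reads came from a Singular G4 instrument. The authors deposited expected counts per gene, written as whole numbers, and TPM values. The submitters' processing notes name BWA 0.7.12-r1039, bedtools 2.25.0, STAR, Salmon and the builds mm10, hg19 and GRCm39, with no roles, so no gene coordinates are taken from the files. Strand handling is not given in the sources used here. No molecular identifiers are mentioned. The SE and intervals given rest on the spread between libraries.

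Counts were tested with edgeR 4.0.16 (R 4.3.3): filterByExpr (14907 genes), TMM, 1 quasi-likelihood model over 26 libraries with 1 coefficient per group, Benjamini-Hochberg adjustment over all genes fitted, and a threshold of 0.05. The fit on the 21 deeper libraries (14730 genes) is the second analysis. SE is the log2 fold change over the square root of F. The script was tested on simulated data. Libraries were compared pairwise (325 pairs, chi-square per degree of freedom 4.74 to 646), and none agreed within sampling noise. A neighbour in the order of levels counts as separated where the means differ by more than the larger SD. DESeq2 1.42.0, limma 3.58.1, other filters and scales, and leaving out each library were tried. Genes named are the members, every list gene called and the list gene of smallest p among those of at least 5 CPM, of which some are given, and the genes of highest r (at least 10 CPM, 3 for Stmn2 and Gap43, otherwise 1). The members and lists were chosen with earlier results of these data known.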

Additional observations from a re-analysis of the deposited data

Results flagged for a closer look

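Of 40 sets of group values tested for a lone sample (groups of 4 or 5 deeper libraries), 3 had a highest or lowest library whose gap to the next exceeded Dixon's 95% limit, where chance gives about 1 in 20. Stmn1 in low intensity replicate 2 was at 339.7 CPM, below the other 4 libraries (383 to 399.6 CPM). Stmn4 in control replicate 2 was at 201.5 CPM, above the other 4 controls (142 to 152 CPM). Marcks in control replicate 5 was at 349.997 CPM, above the other controls (271 to 286 CPM).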

How the results depend on the processing

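No member was called in any comparison under any alternative that used all libraries, leave-one-out fits included (range 0 to 0). In the deeper libraries the count called lower at high intensity was 1 (Stmn3) in the edgeR fit, with DESeq2 size factors (0.183% of all genes) and with protein-coding genes only (0.341%), 2 with DESeq2 (1.21%), 3 without the low-count filter (0.443%), and 0 with only the groups compared, voom weights and the TPM scales. Leaving out 1 deeper library gave 0 to 1. In limma on log2(TPM + 1) of the deeper libraries 7 members at low intensity and 1 (Stmn1, 0.86) on the static array were called higher than controls, beside 29.9% and 5.47% of all genes, and 7 values reversed at low intensity: Stmn1 0.71, Stmn3 0.56, Gap43 0.69, Basp1 0.64, Dpysl2 0.74, Dpysl3 0.67 and Crmp1 0.60. Settings on protein-coding genes, and those on deeper libraries other than the fit itself, its version with only the groups compared and its leave-one-out fits, were chosen after seeing the data. The median r between members was 0.44 after group means were removed and 0.90 on log2(TPM + 1). Values not called in either setting changed sign in 574 of 4200 refits, and these were not counted as reversals. Replicate numbers are shared between groups, but same-numbered libraries did not deviate together (r from -0.22 to 0.18). With a replicate block 0 members were called in all libraries and 0 in the deeper ones, Stmn3 at high intensity having -0.49 (adjusted p = 0.0739). Depth limits all of this: the 5 shallow libraries held at most 437 counts of any member.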
